A study of Mus musculus with 6 samples.

Results

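The transcripts of 10 genes that govern the passage of a cell through G1, *Ccnd1*, *Ccnd2*, *Ccnd3*, *Cdk4*, *Cdk6*, *Cdkn1a*, *Cdkn1b*, *Cdkn2a*, *Cdkn2b* and *Myc*, were compared between the corneal epithelia of control and mutant mice. They were found by gene symbol among the 17554 genes of the deposited table, where each of the 10 has 1 entry. *Rela* encodes the RelA subunit of NF-κB, and the mutant mice carried *Krt14-Cre* and 2 floxed *Rela* alleles (*Krt14-Cre; Rela f/f*, labelled Rela-/-), so that *Rela* was deleted in cells that use the keratin 14 promoter. The control mice were labelled WT, and whether they carried a floxed allele or the Cre transgene is not given in the sources used here. Both groups were of the C57BL/6 strain and 2 months old, and each had 3 independent samples of separated corneal epithelium. How many mice went into a sample is not given either. Bulk RNA-seq reads all cells of a sample at once, so a lower level per cell and fewer cells that use a gene cannot be told apart.

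In G1, D-type cyclins bind the kinases CDK4 and CDK6, and the complexes phosphorylate the retinoblastoma protein, which then releases E2F transcription factors that switch on genes for DNA replication. The INK4 proteins, encoded by *Cdkn2a* and *Cdkn2b*, bind CDK4 and CDK6 directly, whereas the CIP/KIP proteins p21 and p27, encoded by *Cdkn1a* and *Cdkn1b*, mainly restrain CDK2 and also help to assemble cyclin D complexes. MYC, a transcription factor that pairs with MAX on E-box sequences, drives growth and cell cycle entry, and *Ccnd1* is often described as a target of NF-κB. In the corneal epithelium, only basal cells and their limbal precursors divide, and the cells leave the cycle as they move up.

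MYC and MAX bind the E-box CACGTG, which reads the same on both strands, and 2 of the 10 promoter windows of these genes hold it. They are shown because the kinase partners of the D cyclins, *Cdk4* and *Cdk6*, are the genes that carry it. A window runs from 250 bases before to 50 bases after a RefSeq start site of GRCm38.p6, and E-boxes are in capitals. The window of *Cdk4* is on the plus strand at chr10:127063285-127063584, with E-boxes that begin 172, 118, 98 and 11 bases before the start. The window of *Cdk6* is on the plus strand at chr5:3343643-3343942, with 1 E-box that begins 220 bases before the start.
Cdk4: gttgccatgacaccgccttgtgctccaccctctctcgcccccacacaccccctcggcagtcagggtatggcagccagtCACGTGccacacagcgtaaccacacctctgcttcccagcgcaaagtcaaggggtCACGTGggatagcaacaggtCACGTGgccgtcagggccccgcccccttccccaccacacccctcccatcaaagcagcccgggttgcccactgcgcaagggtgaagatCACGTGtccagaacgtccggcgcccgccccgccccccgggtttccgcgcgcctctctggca
Cdk6: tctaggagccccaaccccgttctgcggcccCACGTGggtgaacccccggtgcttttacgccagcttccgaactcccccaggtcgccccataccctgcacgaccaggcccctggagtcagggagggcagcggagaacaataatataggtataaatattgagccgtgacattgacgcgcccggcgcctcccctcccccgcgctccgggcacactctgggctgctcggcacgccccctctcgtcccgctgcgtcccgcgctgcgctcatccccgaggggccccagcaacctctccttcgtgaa

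Windows were held for 7 of the 10 genes, some of them with 2 start sites, and not for *Ccnd1*, *Ccnd2* and *Myc*. Of all 32817 windows, 7.15% have an E-box. The κB motif was found in 0 of the 10 windows (6.93% of all windows) and the AP-1 motif TGANTCA in 0 (7.81%), while the GC-box GGGCGG was found in 8 (35.6%), each searched on both strands. These are matches of letters and not measured binding sites.

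*Rela* had an FPKM of 33.4 to 36.5 in the control samples and of 4.93 to 5.72 in the mutant samples. Library totals ran from 19492942 to 19733834 expected counts, and the 9 members that could be tested had from 522 to 10820 counts in a sample.

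Markers of the cell types that such a sample could hold were summed in CPM (counts scaled to library size), and genes of each list that passed the edgeR test are named. The 10 markers of corneal epithelium summed to 88900 to 98600 CPM in control and to 82700 to 88200 in mutant samples, mostly from *Krt12*, *Krt5* and *Aldh3a1*. Within this list *Krt14*, *Clu* and *Epcam* rose by 3.32, 1.23 and 0.30 on the log2 scale and *Aldh3a1* fell by 0.25 (adjusted p = 1.1e-05, 9.1e-05, 0.03 and 0.047, edgeR). *Krt14* is also the gene whose promoter drives Cre, and the reason for its rise was not tested. By staining, the paper reported normal K14 expression in the cornea and limbus of young mutant mice.

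The 10 immune markers summed to 328 to 358 CPM in control and to 382 to 1280 in mutant samples. *S100a8* had 0 to 2 counts in control against 1858, 349 and 228 in mutant samples, and *S100a9* had 29 to 63 against 13515, 2646 and 1966 counts (log2 fold changes 9.50 and 7.18, adjusted p = 0.0023 and 8.0e-04, edgeR). Both were highest in the mutant sample 1. *Itgam*, the myeloid integrin, overlapped at 5873 to 6193 and 4749 to 8725 counts. It was the larger part of the sum in the control samples and in the mutant samples 2 and 3. *Lyz2*, of myeloid cells, had 0 or 1 count in control and 3.79 to 23.7 in mutant samples, and *Ptprc*, the pan-leukocyte marker, overlapped at 1 to 6 and 2 to 14 counts. *Csf1r* overlapped at 6 to 16.2 and 6.55 to 16 counts, and *Adgre1* had at most 3 counts. *Cd68* and *Cd74* did not pass (adjusted p = 0.22 and 0.18, edgeR). What part of the sum came from immune cells was not tested.

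The 10 stromal markers summed to 14.7 to 17.5 and 9.93 to 18.7 CPM, mostly from *Pdgfra*, which fell by 0.78 on the log2 scale (adjusted p = 0.005, edgeR). Others were higher in the mutant samples. *Dcn* had 3, 2 and 1 counts in control and 66, 34 and 14 in mutant samples (log2 fold change 4.17, adjusted p = 0.0051, edgeR). *Col1a1*, with 1 or 2 and 6 to 23 counts, and *Vim*, with 0 to 2 and 9 to 19 counts, did not overlap but were too low to be tested, and *Kera*, which marks keratocytes, had at most 2 counts. Of 7 vessel and corneal endothelium markers in the table, summed at 19.5 to 22.2 and 22.0 to 36.8 CPM, mostly from *Slc4a11*, 0 passed in edgeR or DESeq2 and 0 had an unadjusted p under 0.05. *Pecam1*, too low to be tested, had 2 to 5 counts in control and 7 to 14 in mutant samples.

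The 9 conjunctival and limbal markers in the table summed to 3960 to 4300 CPM in control and to 2750 to 3460 in mutant samples, mostly from *Krt13* and *Krt15*. *Krt8*, *Krt15* and *Krt13* fell by 1.43, 0.55 and 0.45 on the log2 scale, whereas *Ifitm3* rose by 2.54 (adjusted p = 0.01, 0.039, 0.015 and 1.2e-04, edgeR). The 6 epidermal markers summed to 19.2 to 25.9 and 29.4 to 36.3 CPM, and *Ivl* rose by 1.07 on the log2 scale (adjusted p = 0.017, edgeR). The epidermal keratins *Krt1* and *Krt10* did not rise, with log2 fold changes of -0.10 and -0.22 (adjusted p = 0.73 and 0.33, edgeR). *Lor*, *Flg* and *Krt2* were too low to be tested. The 5 melanocyte markers summed to 10.8 to 12.5 and 11.2 to 13.3 CPM, and 0 passed in edgeR or DESeq2 or had an unadjusted p under 0.05. The part of these differences in the results given next was not tested.

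In the mutant samples, 2 members were higher and 2 were lower. *Myc* and *Cdk6* rose, by 0.68 and 0.49 on the log2 scale. *Ccnd2* and *Ccnd1* fell, by 1.0 and 0.62 on the log2 scale. These are log2 fold changes of mutant over control, called at an adjusted p under 0.05 over 12667 genes (edgeR quasi-likelihood, Benjamini-Hochberg). Of these genes, 7.82% were called higher, 5.42% lower and 13.2% in either direction, against 4 of the 9 members tested. The paper's thresholds for differentially expressed genes are a fold change of 2 or more with an adjusted p of 0.001 or less. Applied to the edgeR values, they called 1.37% of all genes and 0 members, although 7 members had an unadjusted p under 0.05. The authors' own DEGseq p-values were not used, so whether the paper's calls include a member is not shown here. DESeq2 gave 0 members at these thresholds as well. The median log2 fold change of the 9 members was 0.09 (-0.00 for all genes tested), and the median of its size was 0.31 (0.16 for all genes). In 7 of the 9 members the CPM values of the groups did not overlap, as was the case in 33.7% of all genes tested.

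**Figure D1:**
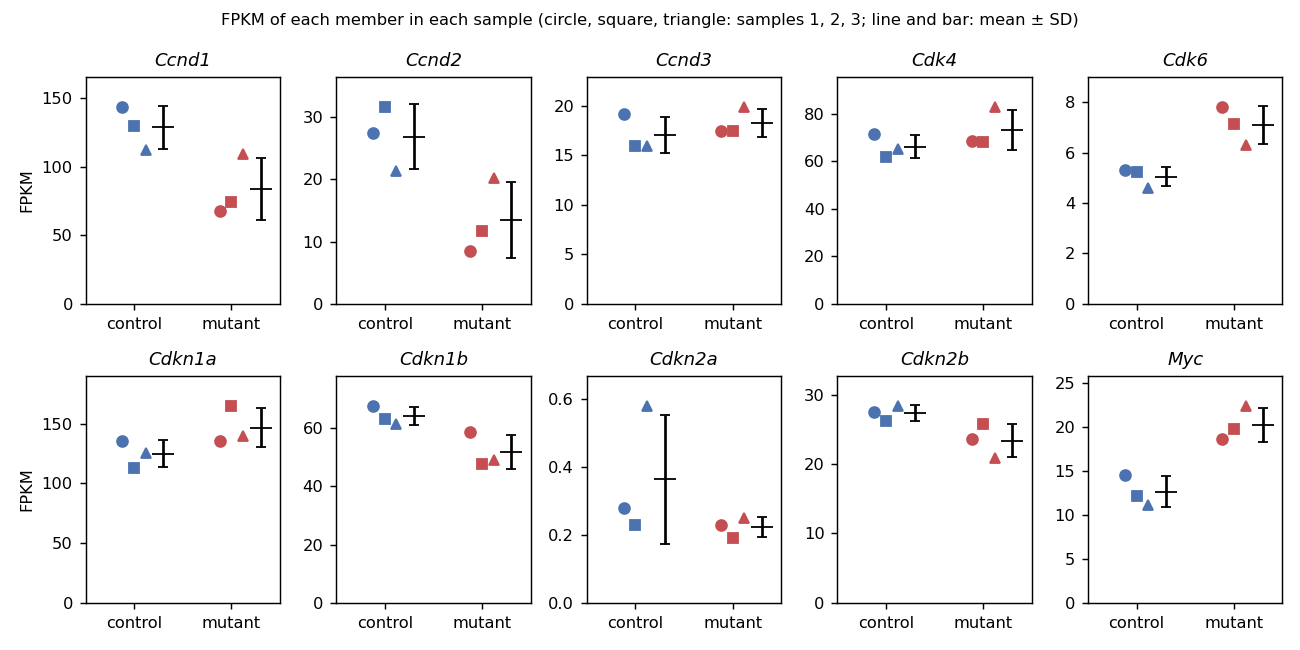
FPKM (vertical axes, each from 0) of the 10 members in 3 control and 3 mutant samples, with the mean and SD beside the points. Ccnd1 and Ccnd2 lie lower and Myc and Cdk6 higher in all 3 mutant samples, and the mutant sample 3 (triangle) lies closest to the control samples for Ccnd1, Ccnd2 and Cdk6.

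Levels per length of transcript are given as FPKM, fragments scaled for transcript length and library size, which allows genes to be compared. In the control samples *Ccnd1* (129 ± 15.6, mean ± SD, n = 3, as for all means here) and *Cdkn1a* (125 ± 11.3) were highest and did not differ beyond their spread. *Cdk4* (66.1 ± 4.86) and *Cdkn1b* (64.0 ± 3.17) followed with overlapping values, and then *Cdkn2b* (27.3 ± 1.14) and *Ccnd2* (26.9 ± 5.19), which also overlapped. *Ccnd3* (17.1 ± 1.86), *Myc* (12.6 ± 1.77) and *Cdk6* (5.05 ± 0.39) were lower, each apart from the next. *Cdkn2a* was near the limit of detection at 0.36 ± 0.19. In the mutant samples *Cdkn1a* stood alone at the top (147 ± 16.0) and *Ccnd1* (83.7 ± 22.3) overlapped with *Cdk4* (73.3 ± 8.46), while *Ccnd2* (13.5 ± 6.07) overlapped with *Ccnd3* (18.3 ± 1.43) and *Myc* (20.2 ± 1.94).

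*Ccnd1* (gene 12443, GRCm38 chromosome 7 from 144929931 to 144939937) encodes cyclin D1, the main D cyclin of many epithelia. The control samples 1 to 3 stood at 144, 129.8 and 113 FPKM, the mutant samples 1 to 3 at 67.6, 74.3 and 109 FPKM. All mutant values were below the control values, but the mutant sample 3 was nearly level with the control sample 3. The log2 fold change of -0.62, with a standard error of 0.16, is a level 1.54-fold lower (adjusted p = 0.031, edgeR). The exons of *Ccnd1* overlap those of *LTO1* on the opposite strand over 23.4% of their bases, and the strand setting of the counting is not given. *LTO1* itself had 272 to 358 counts, against 5049 to 10820 of *Ccnd1*.

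*Ccnd2* (gene 12444, chromosome 6 from 127122966 to 127152188) encodes cyclin D2, which many cells induce on mitogen stimulation. The control samples held 27.6, 31.7 and 21.4 FPKM of it, the mutant samples 8.54, 11.7 and 20.3. The groups did not overlap, with the mutant sample 3 again nearly at the level of the control sample 3. Its log2 fold change of -1.0, with a standard error of 0.26, is a level 2.0-fold lower (adjusted p = 0.032, edgeR), and the mutant samples varied more (coefficient of variation 44.9%) than the control samples (19.3%).

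The call of *Ccnd1* was lost without the control sample 1, 2 or 3 or the mutant sample 2 (adjusted p from 0.054 to 0.11 from edgeR), and that of *Ccnd2* in the same 4 fits (adjusted p from 0.053 to 0.13) and with DESeq2 (adjusted p = 0.069). Without the mutant sample 3 the log2 fold changes were -0.85 and -1.40 (adjusted p = 0.0015 and 0.0011 from edgeR).

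*Ccnd3* (gene 12445, chromosome 17 from 47504831 to 47599962), which encodes cyclin D3, a form often found in differentiating cells, measured 19.2, 16.0 and 16.0 FPKM in control and 17.4, 17.4 and 19.9 FPKM in mutant samples. These values overlapped, and the log2 fold change was 0.09 with a 95% interval from -0.12 to 0.31 (adjusted p = 0.57, edgeR). As a share of the summed FPKM of the D cyclins, *Ccnd3* was 10.1%, 9.0% and 10.7% in control and 18.6%, 16.8% and 13.3% in mutant samples. The share of *Ccnd2* was 15.5% ± 2.02 and 11.3% ± 2.23, and that of *Ccnd1* was 74.6% ± 1.24 and 72.4% ± 0.65 (mean ± SD, n = 3 each). Cyclin D1 thus made up most of the D cyclin mRNA in each sample. The summed FPKM of the D cyclins came to 191, 177 and 150 (control) and to 93.6, 104 and 149 (mutant). The groups did not overlap in the sum or in any of the 3 shares (exact permutation test, two-sided p = 0.1 for each, the smallest that 3 against 3 samples allow). As parts of the same sum, the shares are not independent of each other.

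**Figure D2:**
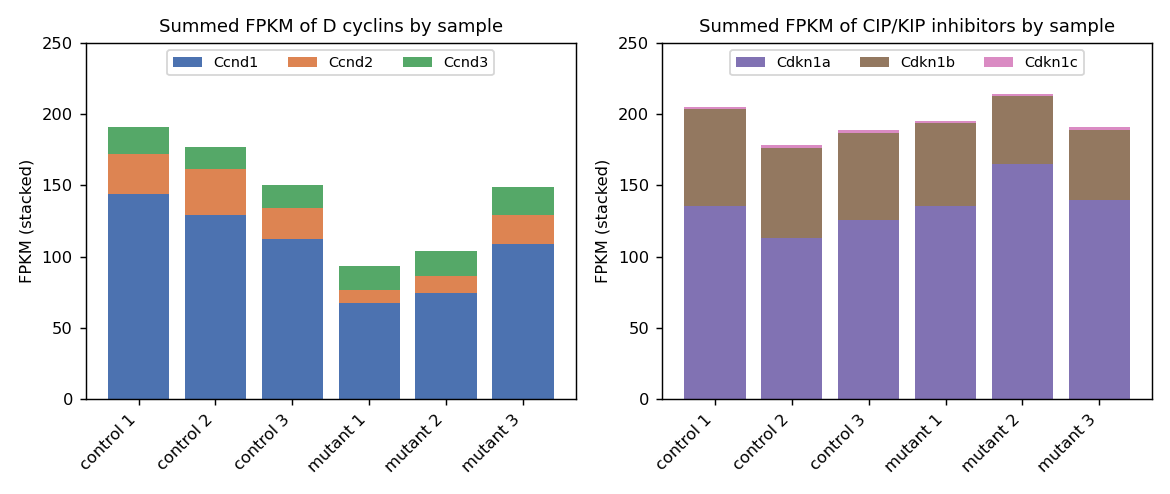
Stacked FPKM (vertical axes, from 0) of the D cyclins, left, and of the CIP/KIP inhibitors, right, in each of the 6 samples. The D cyclin sum runs from 150 to 191 in control and from 93.6 to 149 in mutant samples, whereas the sums of the inhibitors overlap.

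Of the kinase partners, *Cdk4* (gene 12567, chromosome 10 from 127063535 to 127067288) measured 71.4, 61.9 and 65.1 FPKM in control and 68.8, 68.0 and 83.0 FPKM in mutant samples. Its log2 fold change was 0.14 with a 95% interval from -0.07 to 0.34 (adjusted p = 0.36, edgeR), and the groups overlapped. Over 19.7% of its exon bases it overlaps *Tspan31* on the opposite strand, which had 908 to 1214 counts.

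*Cdk6* (gene 12571, chromosome 5 from 3341136 to 3531639), the partner that progenitor cells of several tissues favour, measured 5.33, 5.22 and 4.60 FPKM in control and 7.82, 7.12 and 6.31 FPKM in mutant samples. Each mutant sample was above each control sample, with the mutant sample 3 closest. A log2 fold change of 0.49 with a standard error of 0.098 placed it 1.4-fold higher (adjusted p = 0.011, edgeR). Its call was lost without the control sample 3 (adjusted p = 0.056, edgeR).

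*Cdk6* mRNA remained the smaller part of the pair, with 7.11% ± 0.61 of the summed FPKM of *Cdk4* and *Cdk6* in control and 8.92% ± 1.65 in mutant samples (SD, n = 3 each, exact permutation test, two-sided p = 0.2). The ratio of the D cyclin sum to the kinase sum ran 2.48, 2.64 and 2.15 (control) against 1.22, 1.38 and 1.67 (mutant). This ratio did not overlap between the groups (exact permutation test, two-sided p = 0.1). In all, 19 sums, shares and ratios of this kind were computed, and none could go below 0.1 before adjustment.

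Among the CIP/KIP inhibitors, *Cdkn1a* (gene 12575, chromosome 17 from 29090979 to 29100722), which encodes p21, a target of p53 and of differentiation signals, measured 136, 113 and 126 FPKM in control and 135, 165 and 139.9 FPKM in mutant samples. Of its transcript windows of 50 bases, 8.49% occur in other genes too. The mutant sample 1 lay just under the highest control sample in FPKM and just above it in CPM (260.0 against 257). The log2 fold change was 0.23 with a 95% interval from 0.00 to 0.46 (adjusted p = 0.17, edgeR).

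*Cdkn1b* (gene 12576, chromosome 6 from 134919671 to 134925525), which encodes p27, measured 67.6, 63.1 and 61.4 FPKM in control and 58.5, 47.7 and 48.8 FPKM in mutant samples. The groups did not overlap, yet the log2 fold change of -0.31 did not pass the test (standard error 0.094, adjusted p = 0.059, edgeR). It did with DESeq2 (adjusted p = 0.021) and, in edgeR, without the mutant sample 1 (-0.42, adjusted p = 0.0044).

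With *Cdkn1c*, the third gene of this class, which was low in both groups, the CIP/KIP sum was 191 ± 13.6 FPKM in control and 200 ± 12.5 in mutant samples (SD, n = 3 each, exact permutation test, two-sided p = 0.4). The share of *Cdkn1a* in this sum was 66.2%, 63.5% and 66.4% in control and 69.3%, 77.0% and 73.3% in mutant samples. That of *Cdkn1b* was 32.9%, 35.4% and 32.5% in control and 30.0%, 22.3% and 25.6% in mutant samples. Thus p21 mRNA took a larger and p27 mRNA a smaller share in each mutant sample (exact permutation test, two-sided p = 0.1 for both). With *Cdkn1c* so low, each share nearly fixes the other, so these are not separate results. The ratio of the D cyclin sum to the CIP/KIP sum was 0.91 ± 0.10 in control and 0.58 ± 0.17 in mutant samples. In the mutant sample 3 it was 0.78, just below the 0.79 of the control sample 3.

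Of the INK4 genes, which lie side by side on chromosome 4, *Cdkn2b* (gene 12579, from 89306289 to 89311032) encodes p15, an inhibitor that TGF-β signals induce. Its FPKM was 27.4, 26.1 and 28.4 in control and 23.6, 25.7 and 20.9 in mutant samples, without overlap. The log2 fold change was -0.23 with a 95% interval from -0.45 to -0.01 (adjusted p = 0.16, edgeR). *Cdkn2a* (gene 12578, from 89274473 to 89294619) encodes p16 and, in another reading frame, ARF, and 1 value per gene does not tell them apart. It had 5, 4 and 10 counts in control and 4, 3 and 4 in mutant samples, too few to pass the filter on low counts, and a difference was not detectable at this depth. The other INK4 genes in the table, *Cdkn2c* and *Cdkn2d*, had log2 fold changes of -0.15 and 0.13 (adjusted p = 0.46 and 0.64, edgeR). *Cdkn2b* made up 65.4% ± 0.46 of the summed INK4 FPKM in control and 63.0% ± 4.24 in mutant samples (SD, n = 3 each), the largest share in every sample.

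*Myc* (gene 17869, chromosome 15 from 61985341 to 61990472) stood at 14.6, 12.2 and 11.1 FPKM in the control and at 18.6, 19.7 and 22.4 FPKM in the mutant samples. Every mutant sample was above every control sample, and the highest was the mutant sample 3, the sample whose D cyclins were closest to the control samples. With a log2 fold change of 0.68 and a standard error of 0.11 it was 1.6-fold higher (adjusted p = 0.0029, edgeR). It was called under each of the 14 alternatives, with log2 fold changes from 0.61 to 0.79 and adjusted p-values up to 0.023. None of its transcript windows of 50 bases occurs in another gene.

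**Figure D3:**
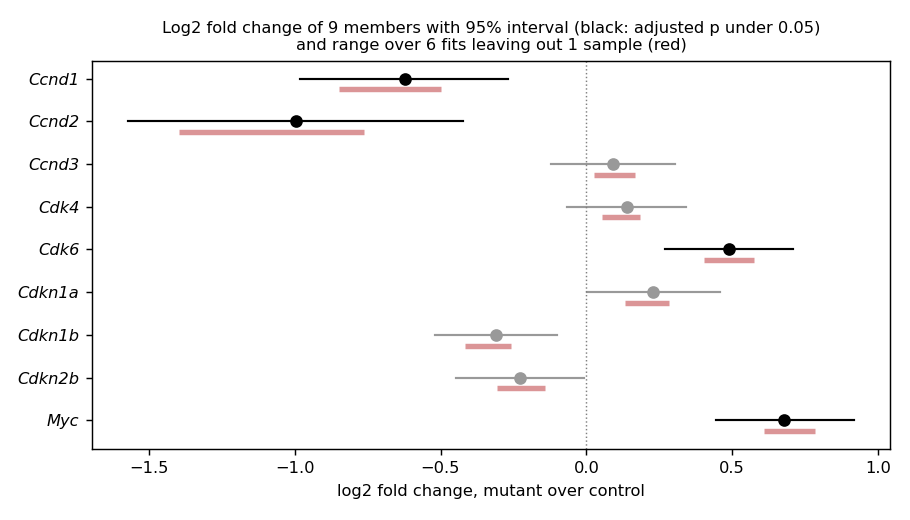
Log2 fold change of mutant over control (horizontal axis) of the 9 members tested, with 95% intervals (lines; black at an adjusted p under 0.05) and the range over 6 fits that each left out a sample (red bars). The red bars of Ccnd1 and Ccnd2 stay below 0 and those of Cdk6 and Myc above 0.

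The genes around the members were read from lists by function, against 7.82% of all genes called higher and 5.42% lower. Counts of 1 in lists of 11 to 15 genes are close to these shares. Of 11 tested genes of the MYC network, which holds the partners and antagonists of MYC, 0 were higher and 1 lower (median log2 fold change 0.02). The lower gene was *Mycl*, which encodes L-MYC, with an FPKM of 23.4, 28.0 and 26.6 in control and of 17.1, 19.0 and 20.2 in mutant samples (log2 fold change -0.46, adjusted p = 0.010, edgeR). *Myc* and *Mycl* thus moved in opposite directions. *Mycn* had at most 2 counts in a sample. *Max* (36.0 ± 1.13 and 37.5 ± 1.70 FPKM) and *Mxd1*, a MAX partner of differentiating cells (90.9 ± 4.81 and 101 ± 18.6 FPKM), did not pass the test.

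The next list held 18 genes commonly described as MYC targets, mostly for ribosome biogenesis, nucleotide synthesis and polyamine synthesis. Of these 18 genes, 7 were higher and 0 lower (7.82% and 5.42% of all genes). The other 11 did not pass the test, and the median log2 fold change was 0.32. *Odc1*, the first enzyme of polyamine synthesis, measured 113, 123 and 118 FPKM in control and 152, 159 and 169 FPKM in mutant samples (log2 fold change 0.43, adjusted p = 0.0045, edgeR). *Npm1*, a nucleolar protein whose processed pseudogenes can draw reads, had 83.9, 79.1 and 80.7 FPKM in control and 188, 129 and 149 in mutant samples (log2 fold change 0.91, adjusted p = 0.0017, edgeR). *Shmt1* and *Cad*, of one-carbon and pyrimidine metabolism, rose by 0.61 and 0.51 on the log2 scale (adjusted p = 0.0086 and 0.022, edgeR). *Ncl* and *Fbl*, other nucleolar proteins, had log2 fold changes of 0.30 and 0.28 and did not pass (adjusted p = 0.094 and 0.097, edgeR).

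Downstream of the cyclin D kinases, 1 of 13 tested genes of the retinoblastoma family and E2F was higher and 0 were lower (median 0.13). *E2f7*, a repressor that E2F1 itself induces, measured 4.51, 4.18 and 4.39 FPKM in control and 8.40, 7.16 and 7.36 FPKM in mutant samples (log2 fold change 0.81, adjusted p = 4.8e-04, edgeR). *Rb1* had a log2 fold change of -0.25 and its relative *Rbl1* of 0.13 (adjusted p = 0.057 and 0.26, edgeR). Of 7 genes for cyclin E, CDK2 and their activators, 0 passed in either direction in edgeR's test (median 0.12), with log2 fold changes of 0.33 for both *Ccne1* and *Ccne2* (adjusted p = 0.11 and 0.14). DESeq2 called 0 of these 7 as well, and 2 had an unadjusted p under 0.05 in edgeR. Of 4 further CDK inhibitor genes, *Cdkn1c*, *Cdkn2c*, *Cdkn2d* and *Cdkn3*, 0 passed in either direction in edgeR or DESeq2 (median -0.01), and 0 had an unadjusted p under 0.05.

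Of 18 genes that E2F switches on for the S phase, 3 were higher and 0 lower (7.82% and 5.42% of all genes), with a median of 0.29. They were *Mcm4*, of the replicative helicase, and *Rrm1* and *Rrm2*, the subunits of ribonucleotide reductase, with rises of 0.36, 0.37 and 0.49 on the log2 scale (adjusted p = 0.022, 0.023 and 0.022, edgeR). *Pcna*, the sliding clamp, showed a log2 ratio of 0.20 (adjusted p = 0.28, edgeR). Of 5 proliferation markers, 1 was higher, *Top2a*, by 0.45 on the log2 scale (adjusted p = 0.036, edgeR), and *Mki67* showed a log2 ratio of 0.37 (adjusted p = 0.089, edgeR). By staining at this age, the paper reported fewer PCNA-positive cells at the central cornea of mutant mice, with similar numbers in periphery and limbus. Stained cells by region and mRNA of the separated epithelium are unlike measures, and how they relate was not tested.

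**Figure D4:**
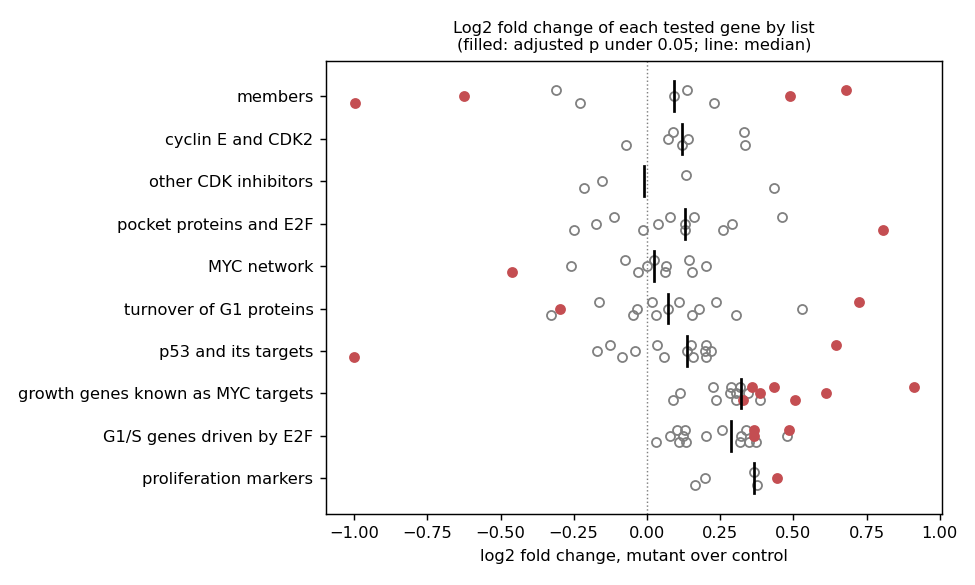
Log2 fold change of mutant over control (horizontal axis) of each tested gene in 10 lists, filled where the adjusted p was under 0.05, with the list median as a line. The called members lie on both sides of 0, and 7 of 18 MYC target and 3 of 18 E2F target genes are filled, each above 0.

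Of 15 genes for the turnover of G1 proteins, 1 was higher and 1 lower (median 0.07). *Fbxw7*, whose product marks cyclin E and MYC for degradation, measured 6.32, 5.70 and 5.69 FPKM in control and 12.2, 9.10 and 9.81 FPKM in mutant samples (log2 fold change 0.73, adjusted p = 0.0014, edgeR). *Rbx1*, a subunit of the same class of ubiquitin ligases, fell by 0.30 on the log2 scale (adjusted p = 0.038, edgeR). *Skp2*, which marks p27 for degradation, showed a log2 ratio of 0.18 (adjusted p = 0.56, edgeR), and its cofactor *Cks1b* of 0.53 (adjusted p = 0.055).

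Of 15 tested genes of p53 and its targets, a list to which *Cdkn1a* would also belong, 1 was higher and 1 lower (median 0.14). *Sesn1* fell from 28.8, 36.1 and 32.5 FPKM in the control samples to 15.6, 16.9 and 16.6 in the mutant samples (log2 fold change -1.0, adjusted p = 2.7e-04, edgeR). *Sesn2*, a related stress-induced gene, rose by 0.65 on the log2 scale (adjusted p = 0.0057, edgeR). *Mdm2* and *Trp53* had log2 fold changes of 0.20 and 0.14 (adjusted p = 0.099 and 0.46, edgeR). *Eda2r* and *Gdf15* had at most 3 counts in a sample.

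As a description, the genes whose profile over the 6 samples came closest to each called member were found by the root mean square difference of log2 CPM, each gene centred on its own mean, among 12666 other genes. Closest to *Myc* were *1700017B05Rik*, *Clca2* and *Igfbp5* (0.043, 0.047 and 0.065 log2 units, against a median of 0.40). For *Cdk6* they were *Errfi1*, *Acot11* and *Ptpre* (0.051, 0.056 and 0.064, median 0.31). For *Ccnd1* they were *Gpr161*, *Zbtb12* and *Fam72a* (0.096, 0.099 and 0.10, median 0.42), and for *Ccnd2* they were *Wnt10a*, *Kif6* and *Slc25a29* (0.16, 0.17 and 0.17, median 0.67). *Wnt10a*, *Clca2*, *Igfbp5*, *1700017B05Rik*, *Errfi1*, *Acot11* and *Ptpre* passed the edgeR test themselves, whereas the neighbours of *Ccnd1* and the other 2 of *Ccnd2* did not.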

How the data were processed

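Corneal epithelial RNA of 3 control and 3 mutant samples was sequenced as single-end reads of 50 bases after rRNA depletion, per the methods of the paper, while the labels name a TruSeq kit. The authors filtered reads with SOAPnuke, aligned them with Bowtie2 2.2.5 and deposited expected counts per gene from RSEM 1.2.12, not normalized or pooled. The authors also deposited FPKM values, scaled by transcript length and library total. Their group means and their DEGseq log2 fold changes and p-values were not used. The labels name mm9, but the chromosome accessions of the table are those of GRCm38.

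Groups follow the sample titles. Expected counts were rounded and tested with edgeR 4.0.16 in R 4.3.3 (TMM scaling, filterByExpr at its thresholds of 10 counts and 15 in total, quasi-likelihood test, Benjamini-Hochberg adjustment over 12667 genes), and 3 counts were taken as the limit of detection. Standard errors were derived by dividing each estimate by the root of its F value, and 95% intervals use its degrees of freedom. The p-values set the difference between groups against the spread between samples. Likeness used log2 CPM with a prior count of 2. Alternatives were DESeq2 1.42.0, other scalings and filters, limma 3.58.1 on log2(FPKM + 1) and log2(FPKM + 0.1), a replicate block and leaving out each sample. The statistics were checked on simulated counts. Exon overlaps and shared windows of 50 bases come from GENCODE M21. Genes named beyond the members are, per list, those called, up to 4 by adjusted p. Others, chosen after their values were seen, are named for their role or their part in a marker sum. The members and lists were chosen with earlier results of these data known.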

Additional observations from a re-analysis of the deposited data

How the results depend on the processing

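Each of the 9 members tested kept its direction under all 14 alternatives, and *Myc*, *Ccnd3*, *Cdk4*, *Cdkn1a* and *Cdkn2b* also kept their side of the 0.05 threshold. The number of members called was 4 and lay between 1 and 5 when each of the 6 samples was left out in turn, the 5 being without the mutant sample 1, which adds *Cdkn1b*, and the 1 being *Myc* without the control sample 3. It was 2 without the control sample 1, without the control sample 2 and without the mutant sample 2. In these fits 857 to 1869 genes were called, with 857 without the control sample 2 and 999 without the control sample 3, against 1678 with all samples. With all 6 samples, DESeq2, RLE and upper-quartile scaling, both filters and both limma settings each called 4 members, DESeq2 with *Cdkn1b* in place of *Ccnd2*, and none called a member at the thresholds of the paper. The cause was not tested.

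With the replicate block, 4 members and 1419 genes were called, and *Ccnd2* had a log2 fold change of -1.07. Same-numbered samples did not deviate together (correlations of 0.02, 0.05 and -0.05). No pairing by number was thus seen, but such correlations cannot exclude it. The block changed no call of a member. Counts of 522 or more per sample leave little counting error in the members tested, so the spread between 3 samples sets the precision, and for *Cdkn2a* depth limits what can be seen. Reads of overlapping genes on opposite strands were not separated here.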
